A study of Mus musculus with 9 samples.

Results

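Fatty acid oxidation was followed through 10 genes of carnitine transfer and mitochondrial β-oxidation that have been linked to stem cell quiescence: Cpt1a, Cpt2, Acadl, Acadm, Acadvl, Hadha, Hadhb, Acaa2, Acsbg1 and Ppara. The list follows the role of the genes and was drawn up with earlier results of these data known, and all 10 were found among the 32287 gene identifiers counted. Their unique molecular identifiers (UMIs, each standing for a captured transcript) were followed from quiescent neural stem cells (NSCs) through activated NSCs and transit amplifying progenitors (TAPs) to neuroblasts, and in the other cell types caught by the same sort. The study asked how interferon acts on NSCs in young and old mice. It deposited 4 single-cell 3′ expression libraries with 4 matching libraries of hashtag oligonucleotides, which mark the mouse and the tissue of a cell, while 1 further sample has no group in its labels and was not analysed here.

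All mice were male TiCY mice, in which a tamoxifen-inducible Cre recombinase under the promoter of Tlx (Nr2e1) switches on eYFP in NSCs and hence in their progeny, and whose strain name also lists the Fas allele Fastm1Cgn in both genotypes. The WT mice carried intact interferon receptors and the KO mice (IFNAGR KO) lacked the receptors for type I and type II interferon, Ifnar1 and Ifngr1. WT young mice were 16 weeks old and were taken 6 weeks after tamoxifen. Mice were taken 9 weeks after tamoxifen in the other 3 groups, which were aged 80 weeks (WT old), 16 weeks (KO young) and 92 to 105 weeks (KO old). Cells came from the ventricular-subventricular zone (vSVZ), sorted for eYFP or for GLAST, a glutamate transporter of astroglia, and from the rest of the brain (RoB, a pool of striatum, rostral migratory stream and olfactory bulb), sorted for eYFP or for low PSA-NCAM. CD45-, Ter119- and O4-positive cells were gated out. The 2 mice of a group were run in 1 reaction, so group and reaction cannot be told apart.

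β-oxidation shortens fatty acids inside the mitochondrion to yield acetyl-CoA. An acyl-CoA synthetase activates the fatty acid, Cpt1a links it to carnitine at the outer membrane in the step that malonyl-CoA restrains, and Cpt2 releases it again on the inner side. Each cycle then takes an acyl-CoA dehydrogenase (Acadvl, Acadl and Acadm for very long, long and medium chains), the mitochondrial trifunctional protein (Hadha and Hadhb) and a thiolase (Acaa2). Ppara is a nuclear receptor that senses fatty acids and switches on genes of the pathway, and NSCs of the adult brain are known to use fatty acid oxidation in the quiescent state.

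Hadha and Hadhb, the α and β subunits of the same enzyme, lie head to head on mouse chromosome 5, and the stretch that parts them is shown because both genes come up together in several comparisons below. Their starts in RefSeq lie 273 bases apart, and GENCODE annotates neither a gene nor an exon in the 85 bases left between both genes, chr5:30155163-30155247 on the plus strand of GRCm38, of which 69.4% are G or C.
Hadha-Hadhb: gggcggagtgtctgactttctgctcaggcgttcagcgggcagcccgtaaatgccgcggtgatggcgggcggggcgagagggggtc

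PPAR-type receptors bind repeats of the letters AGGTCA, and the promoters of the members were searched for this half-site on both strands, from 250 bases before to 50 bases after the RefSeq start. The RefSeq promoter table of GRCm38.p6 held 9 of the 10 members. AGGTCA was present for 3 of these 9 (Acadm, Acadvl and Cpt1a) and in 5340 of 32851 promoters of the table (16.3%). The longer AAGGTCA, which contains the half-site, was found for 1 member (Acadm) and in 4.72% of promoters, and 2 AGGTCA copies parted by 1 base were found for 0 members and in 0.0396% of promoters. The 3 windows are printed 5′ to 3′ on the strand of the gene with the half-site, or its reverse complement TGACCT, in capitals. The Acadm half-site lies at base -249, counted from the RefSeq start, within chr3:153944867-153944893 on the minus strand. The Acadvl half-site lies at base -87 within chr11:70015490-70015535 on the minus strand, and the Cpt1a half-site at base -94 within chr19:3323187-3323232 on the plus strand, inside the Cpt1a gene of GENCODE but in none of its exons.
Acadm: gTGACCTtcgggctccggtgacactgg
Acadvl: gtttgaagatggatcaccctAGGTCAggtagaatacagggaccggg
Cpt1a: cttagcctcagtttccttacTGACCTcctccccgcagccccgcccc
A match is a description of the letters in this window, and no binding was measured.

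The expression libraries held 27096070 to 78028524 UMIs and 2423 to 6638 retained cells each, 18390 in all, and 60 retained cells shared a barcode sequence with a cell of another library. In the KO libraries Ifngr1 stood at 2.86 and 4.40 UMIs per 1000000 against 46.8 and 85.5 in the WT libraries, and Ifnar1 at 8.07 and 6.57 against 21.2 and 28.5, in the direction of the labels. The cells fell into 29 clusters. Clusters were named from marker genes, with "-like" added, and the members were left out of the genes used to form clusters. Quiescent NSC-like cells numbered 5779, activated NSC-like 1284, TAP-like 1078, neuroblast-like 6271, ensheathing glia-like 2024, neuron-like 641, microglia-like 328, oligodendrocyte-like 133, endothelial-like 100 and oligodendrocyte progenitor (OPC)-like 81. The markers of quiescent NSC-like cells (among them Slc1a3, Aqp4 and Gja1) are shared with parenchymal astrocytes, and the class holds RoB-tagged cells. Microglia-like cells were present although CD45 was gated out. Levels are given as CPM, the UMIs of a gene per 1000000 UMIs of the cell class, and where 4 library values follow each other they stand in the order WT young, then WT old, then KO young, then KO old. Since 3′ counts do not scale with transcript length, levels are compared between cell classes for the same gene and not between genes.

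**Figure D1:**
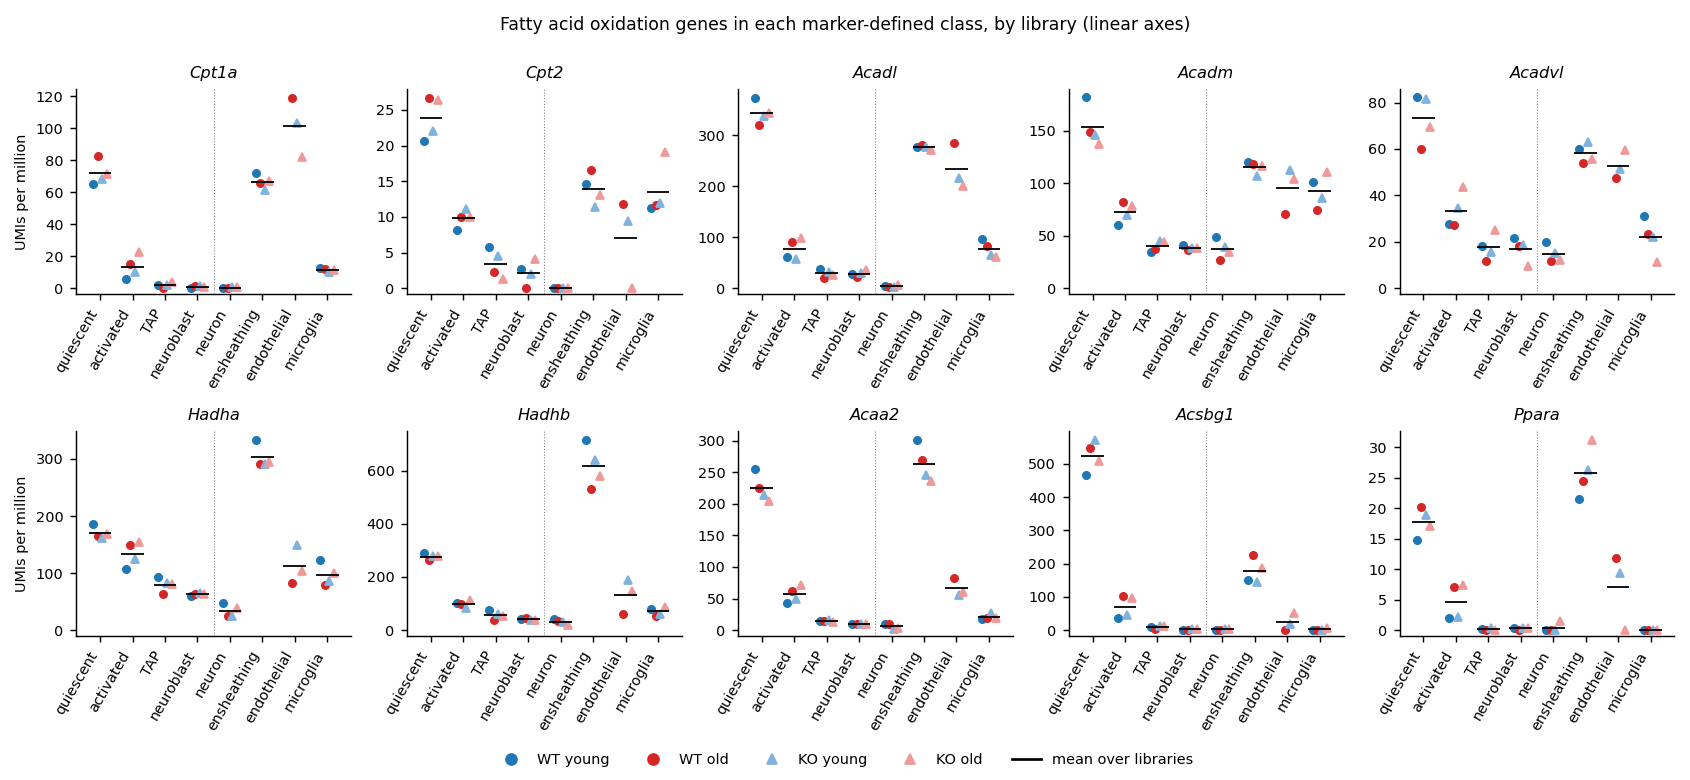
CPM (linear vertical axes, each from 0) of the 10 members in 8 cell classes, with 1 point per library and the mean over libraries as a black line; endothelial-like cells have 3 libraries and the dotted line parts the NSC lineage from the other classes. Each member is highest in quiescent NSC-like, ensheathing glia-like or endothelial-like cells, and Hadhb reaches a mean of 617 in ensheathing glia-like against 277 in quiescent NSC-like cells.

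Both carnitine transferases were far lower in neuroblast-like than in quiescent NSC-like cells, Cpt1a with 1.2% and Cpt2 with 9.44% of the quiescent level left. Cpt1a stood at 65.2, 82.4, 68.5 and 71.2 CPM in quiescent NSC-like cells. In activated NSC-like cells it stood at 5.60, 15.04, 10.2 and 22.7. In neuroblast-like cells it stood at 0.165, 1.08, 1.57 and 0.677, so that the libraries of the 3 classes did not overlap. The fitted level in neuroblast-like cells was 89.9-fold lower than in quiescent NSC-like cells (log2 change -6.49, SE 0.27, adjusted p = 4.75e-22, edgeR's quasi-likelihood test with Benjamini-Hochberg adjustment over 14370 genes). Endothelial-like cells, whose metabolism of fatty acids is well known, had a Cpt1a level of 119 CPM in WT old and of 103 and 81.9 CPM in the young and the old KO library. Its difference from quiescent NSC-like cells was not called (log2 change -0.04, SE 0.33, adjusted p = 0.94, edgeR's quasi-likelihood test). The direction depends on the scaling, since the CPM were higher in 3 of 3 libraries, and the log2 change was 0.41 with library size alone and 0.16 with DESeq2, neither called. Cpt2, the inner-membrane partner, stood at 20.6, 26.6, 22.1 and 26.4 CPM in quiescent NSC-like cells and at 2.72, 0, 2.03 and 4.06 in neuroblast-like cells, a 12-fold fall (log2 change -3.59, SE 0.23). Neuron-like cells held 0 Cpt2 UMIs among 4690808, which allows at most 0.64 CPM (3 UMIs over all libraries), so that Cpt2 was at least 37.2-fold lower there than in quiescent NSC-like cells.

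The acyl-CoA dehydrogenases fell less than Cpt1a. Acadl stood at 372, 320, 338 and 344 CPM in quiescent NSC-like cells, and at 27.1, 22.6, 29.6 and 35.2 in neuroblast-like cells. Neuron-like cells had 3.64, 2.97, 2.79 and 6.82, below each neuroblast-like library. Acadm, which acts on medium chains, kept 25.3% of its quiescent level in neuroblast-like cells (range over libraries 22.7 to 27.8%), with 182, 149, 146 and 138 against 41.4, 36.6, 38.2 and 38.2 CPM. Acadvl, bound to the inner membrane, kept 23.3% (13.7 to 30.4%), with 82.3, 60.1, 81.5 and 69.3 against 21.7, 18.3, 18.5 and 9.47. The fitted falls were 14.9-fold for Acadl (log2 change -3.90, SE 0.15), 4.94-fold for Acadm (-2.30, SE 0.09) and 5.21-fold for Acadvl (-2.38, SE 0.12), all 3 called. In microglia-like cells Acadm stood at 93.1 ± 16.4 CPM (SD, n = 4 libraries), 61.2% of its quiescent level. In neuron-like cells Acadm kept 24.1% of its quiescent level (17.9 to 27% over libraries) and Acadl 1.18% (0.825 to 1.98%).

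The subunits of the trifunctional protein took different courses in the NSC lineage. Hadha fell least of all members, from 185, 166, 162 and 168 CPM in quiescent to 107, 148, 125 and 154 in activated NSC-like cells, 92.3, 62.5, 83.3 and 80.4 in TAP-like cells and 59.1, 62.9, 64.9 and 63.9 in neuroblast-like cells. Hadhb fell from 289, 263, 278 and 277 to 101, 99.2, 84.3 and 112 and then to 40.8, 44.1, 38.2 and 38.2 in neuroblast-like cells. Neuroblast-like cells thus kept 37% of the quiescent Hadha level (31.9 to 40.1% over libraries) and 14.6% of the Hadhb level (13.7 to 16.8%), ranges that do not overlap. Acaa2, the last enzyme of the cycle, fell from 255, 225, 214 and 204 to 9.72, 9.14, 8.99 and 9.47, which is 29.8-fold (log2 change -4.90, SE 0.12, adjusted p = 4.81e-29, edgeR's quasi-likelihood test). In OPC-like cells 1 Acaa2 UMI was found among 801515. Oligodendrocyte-like cells had 5.74 and 12.7 Acaa2 CPM in the 2 libraries with 20 cells or more, a mean of 4.38% of the quiescent level, while Hadha stood at 103% of its own quiescent level there. These small classes were not tested.

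Acsbg1, the bubblegum acyl-CoA synthetase that activates long and very long chains, showed the steepest course. It stood at 466, 549, 571 and 508 CPM in quiescent NSC-like cells, 35.1, 103, 44.1 and 98.1 in activated NSC-like cells, 10.7, 2.32, 11.7 and 11.3 in TAP-like cells and 0.988, 1.08, 3.35 and 3.38 in neuroblast-like cells, with the 4 libraries of the first 3 classes not overlapping. The fitted fall to neuroblast-like cells was 263-fold (log2 change -8.04, SE 0.27, adjusted p = 3.80e-25, edgeR's quasi-likelihood test). Ppara, the receptor, was rare, with 14.7, 20.2, 18.8 and 17.1 CPM in quiescent NSC-like cells, and UMIs in 7.06 to 12.8% of these cells. In neuroblast-like cells it stood at 0.329, 0, 0.394 and 0.338, a 55.4-fold fall (log2 change -5.79, SE 0.31). Microglia-like cells held 0 Ppara UMIs among 1728540, which allows 1.74 CPM, so that Ppara was at least 10.4-fold lower there than in quiescent NSC-like cells. The neuroblast-like levels of Acsbg1 (0.415% of quiescent) and Cpt1a (1.2%) lay near those of the 10 astroglial markers, which had a median of 0.431% and a highest value of 1.02% (Slc1a2), and Ppara stood at 1.58%. The other 7 members kept 4.18 to 37% of the quiescent level, above that range. The quiescent level in these percents and falls is that of the whole class. Of its 5779 cells, 1036 form the eYFP-rich cluster described below. Acsbg1 had a mean of 229 CPM in that cluster and 585 in the other quiescent cells, Cpt1a 55.8 and 75.6, and Ppara 12.2 and 18.9. Acadvl went the other way (102 and 67.9). The part of free RNA in the lowest values was not tested.

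Each member fell between quiescent NSC-like and neuroblast-like cells. The call rule was an adjusted p under 0.05, and 10 of 10 members were called lower, where 44.3% of the genes tested were, with a median log2 change of -3.74 against -0.29 over all genes. Cell classes were formed from other genes of the same cells, so these p-values measure how well a difference repeats over libraries. Between quiescent and activated NSC-like cells 10 of 10 were lower (39.6% of genes), from -0.79 (SE 0.12) for Hadha to -3.50 (SE 0.20) for Acsbg1. From activated NSC-like to TAP-like cells 10 of 10 were again lower (20.1% of genes), from -0.54 for Hadha to -3.12 for Ppara, with a median of -0.97 against -0.10 over all genes. When the cells were grouped at a coarser clustering resolution of 0.5, 1 of them was called, and 1237 of 13718 genes were lower in place of 2893 of 14370. From TAP-like to neuroblast-like cells 6 of 10 were lower (23.8% of genes): Cpt1a (-1.31), Cpt2 (-1.04), Hadha (-0.44), Hadhb (-0.64), Acaa2 (-0.71) and Acsbg1 (-2.31). The count of these last calls was 2 without the WT young library and 3 without the KO young library. Acadl (-0.21, adjusted p = 0.334), Acadm (-0.03, 0.861), Acadvl (0.07, 0.78) and Ppara (0.10, 0.953) were not called at this last step by edgeR's quasi-likelihood test, and Ppara had 4 UMIs in TAP-like cells in all.

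**Figure D2:**
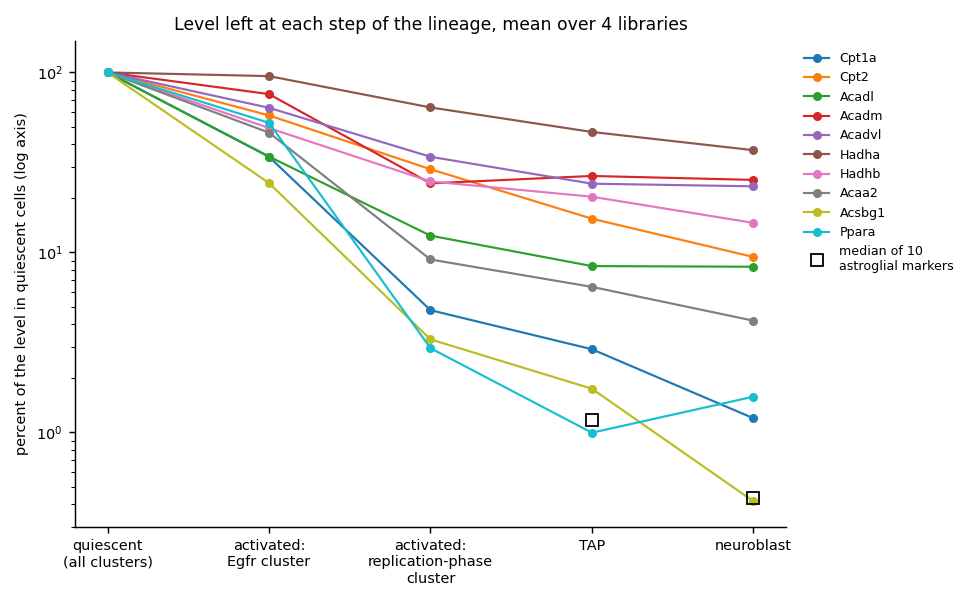
Level of each member as a percent of its quiescent NSC-like level (log axis), as the mean over the 4 libraries, in both activated NSC-like clusters, TAP-like and neuroblast-like cells; open squares mark the median of the 10 astroglial markers at the last 2 classes. Hadha ends highest at 37% and Acsbg1 lowest at 0.415%, next to the marker median of 0.431%.

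The activated NSC-like class held 2 clusters, and the members are given for each. Cells of the first had Egfr, the receptor of epidermal growth factor, among their leading genes. Cells of the second had genes of DNA replication such as Hells, Mcm3 and Rrm2, and also Dlx2, a TAP-like marker, and Igfbpl1, a neuroblast-like marker. The mean marker score of the second was 3.73 for activated NSC-like and 3.31 for neuroblast-like cells. An eYFP UMI was found in 91.8% of its 818 cells, against 67.6% in the Egfr cluster and 91.2 and 92% in the TAP-like clusters. Acadm kept 75.8% of its quiescent level in the Egfr cluster (105 to 131 CPM over libraries) and 24.2% in the replication-phase cluster (20.4 to 44.8). Hadha kept 95.4% (138 to 190) and 63.9% (96.7 to 127), Acaa2 46.3% and 9.14%, and Cpt1a 34% (15.1 to 36.2) and 4.78% (2.48 to 4.53). Acadvl stood at 28.8 to 57.8 and 21.6 to 30.1 CPM, ranges that overlap. No test was run between these clusters. The quiescent level here is that of the whole class. In its eYFP-rich cluster, described below, Cpt1a had a mean of 55.8 CPM, Acadm 165, Hadha 162 and Acaa2 252. The means of the same genes in the Egfr cluster were 24.4, 117, 162 and 104. The replication-phase cluster made up 71.6% of activated NSC-like cells in the young WT and 65.7% in the young KO library, and 42.1% and 36.9% in the old ones. With 1 library per group the age groups were not tested in this class, and the part of the cluster mix in its levels was not tested. Within the Egfr cluster Acaa2 stood at 104, 95.4, 110 and 107 CPM, whereas Acsbg1 stood at 85.2, 169, 98.4 and 156.

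Outside the lineage, ensheathing glia-like cells, the glia that wrap olfactory axons, had the highest means of Hadha, Hadhb, Acaa2 and Ppara. These are ranks among the 8 classes with 20 cells in 3 or more libraries, where endothelial-like cells had the highest mean of Cpt1a. Hadhb stood at 715, 532, 641 and 579 CPM in ensheathing glia-like cells, above each quiescent library, and was 2.26-fold higher (log2 change 1.18, SE 0.13, adjusted p = 3.56e-10, edgeR's quasi-likelihood test). Hadha, the gene next to it, stood at 334, 292, 292 and 295 and was 1.82-fold higher (0.86, SE 0.12). Ppara (21.4, 24.5, 26.2 and 31.1) was 1.48-fold and Acaa2 (301, 269, 245 and 235) 1.19-fold higher. In all, 4 of 10 members were called higher there (25.3% of genes) and 4 of 10 lower (28.1% of genes). The lower members were Cpt2 (-0.77), Acadm (-0.37), Acadvl (-0.28) and Acsbg1 (-1.57, with 150, 226, 146 and 187 CPM). Cpt1a (-0.11, adjusted p = 0.613) and Acadl (-0.28, adjusted p = 0.0682) were not called by edgeR's quasi-likelihood test. Ensheathing glia-like cells also kept some astroglial marker RNA, with a median of 17.5% of the quiescent level, from 0.563% for Clu to 326% for S100b, and the part of this in the result was not tested. Without the KO young library 5 of the 8 calls were left, Acadm, Acadvl and Acaa2 being lost. DESeq2 called 6, without Acaa2 (adjusted p = 0.0692) and Acadvl (0.217), and Acadvl was not called with library size alone (adjusted p = 0.053). No share of all genes is given for these alternatives.

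In neuron-like cells 10 of 10 members were lower than in quiescent NSC-like cells (34.6% of genes), from -2.40 for Acadm to -7.74 for Acsbg1 among the 9 members with UMIs there. Microglia-like cells also had 10 of 10 lower (31.5% of genes), with Acadm (-0.75, SE 0.13), Hadha (-0.82, SE 0.16) and Cpt2 (-0.91, SE 0.35) closest to the quiescent level. Endothelial-like cells had 9 of 10 lower (21.2% of genes) by edgeR and 6 of 10 by DESeq2. No share of all genes is given for DESeq2, so the drop is not read as one of the members. These tests used 3 libraries, with 21 (WT old), 40 (KO young) and 25 cells (KO old). There Acadl stood at 285, 215 and 201 CPM in these libraries (that of WT old first, then those of young and old KO mice), and Acsbg1 at 0, 18.7 and 52.1. Of the astroglial markers, Slc1a2 stood at 0, 74.9 and 618 in the same libraries and Aldoc at 35.6, 154.5 and 447. S100b (23.7, 37.5 and 29.8) did not rise throughout. The part of astroglial RNA in the Acsbg1 values was not tested. Scaling by library size alone left 4 called in endothelial-like cells and moved the median of all genes from -0.54 to -0.11 in that comparison. Under the same scaling 1924 of the genes called there were lower and 2613 higher, against 3045 and 1884 above.

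**Figure D3:**
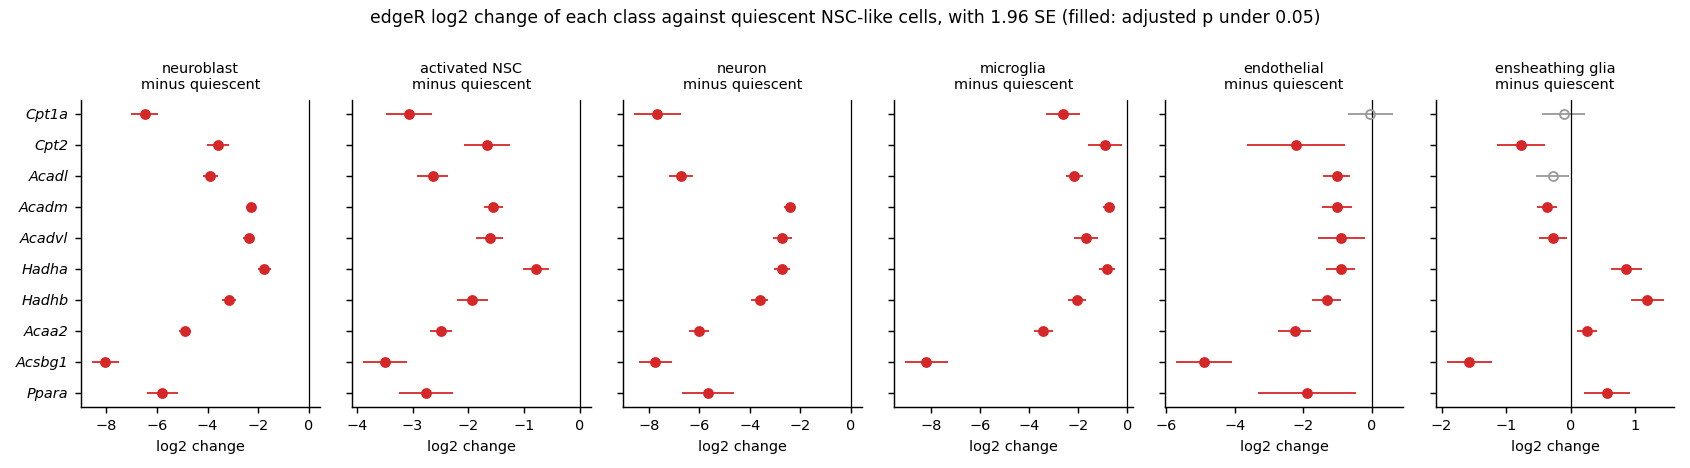
Log2 change of each member in 6 cell classes against quiescent NSC-like cells, with a panel and an axis of its own for each class and bars for the 95% interval from the SE; filled red points had an adjusted p under 0.05, and open grey points did not. Cpt2 in neuron-like and Ppara in microglia-like cells are not drawn because no UMI was found, and points to the right of 0 are those of Hadha, Hadhb, Acaa2 and Ppara in ensheathing glia-like cells.

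Over the 7 classes with values in all 4 libraries, the means of Hadha and Hadhb followed each other with a Pearson r of 0.956, and pairs of members ranged from 0.711 (Cpt2 and Ppara) to 0.986 (Acadvl and Acaa2). These r values describe 7 classes of the same libraries. Of 14341 genes, the profile most like that of Cpt1a was Apoe, the lipid carrier of astroglia (r = 0.9936), followed by Cpq, Erp44, AC154366.4 and Nr1h3. The genes most like Acsbg1 were 1810062G17Rik, Nek8, Ddit4l, Pygb and Gpr37l1 (0.9985 to 0.9951), and those most like Ppara were Cyp2j9, Spef2, Myl9, Cmtm5 and Slc13a5 (0.9993 to 0.9966). Nearest to the mean of the members were Ggh (0.9944), Srebf1, a master regulator of fatty acid synthesis (0.9938), and Smpdl3a (0.9927).

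Members differed between clusters of the quiescent class as well. Acsbg1 spanned the widest range, from a mean of 229 CPM in a cluster with many eYFP-bearing cells to 693 in another, while Hadha ranged only from 162 to 192 and Hadhb from 237 to 290 over the 7 quiescent clusters. In the cluster with Acsbg1 at 229, 49.6% of 1036 cells had an eYFP UMI, against 3.43 to 10.1% in the other 6, and its leading genes included Thbs4 and Prss56. It is called the eYFP-rich cluster below. Cpt1a stood there at 48.0, 68.9, 46.6 and 59.6 CPM, each below the other quiescent cells of its library (72.1, 83.4, 74.2 and 72.6). Acadvl went the other way with 108, 108, 98.5 and 94.8 against 71.7, 56.3, 77.2 and 66.3. Acsbg1 (220, 250, 228 and 218 against 565, 573, 660 and 542) and Cpt2 (13.3, 20.2, 18.9 and 14.5 against 23.6, 27.1, 22.9 and 27.8) had no overlap either.

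In edgeR's quasi-likelihood test, with each library as a block, 7 of 10 members were lower in the eYFP-rich cluster (23% of 11203 genes) and 1 of 10 higher (23.5% of genes). Acsbg1 was 2.84-fold lower (log2 change -1.50, SE 0.08, adjusted p = 4.34e-13), Ppara 1.81-fold (-0.86, SE 0.20), Cpt2 1.63-fold (-0.71, SE 0.16) and Cpt1a 1.56-fold lower (-0.64, SE 0.10), and Acadvl 1.32-fold higher (0.41, SE 0.10, adjusted p = 0.00145). The changes of Hadhb (-0.29), Hadha (-0.20) and Acadl (-0.17) were small and shrank to -0.15, -0.06 and -0.03 with library size alone, a scaling that moved the median of all genes from 0.01 to 0.16. Under that scaling these 3 lost their calls and Acaa2 (0.21) was called higher, which gave 4 lower and 2 higher, and DESeq2 did not call Hadha and Acadl. The shares of all genes called under these alternatives are not given. Acadm (-0.00, with 182.3, 154.6, 165.8 and 158.0 against 182.3, 148.8, 141.3 and 135.2 CPM) and Acaa2 (0.07) were not called above. With clusters formed at resolution 0.5 the change of Acadvl was -0.06. Of the wider pathway, Abcd2, a peroxisomal transporter of very long chains, stood at 20.3 CPM in the eYFP-rich cluster against 95.4 in the other quiescent cells (-2.42).

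**Figure D4:**
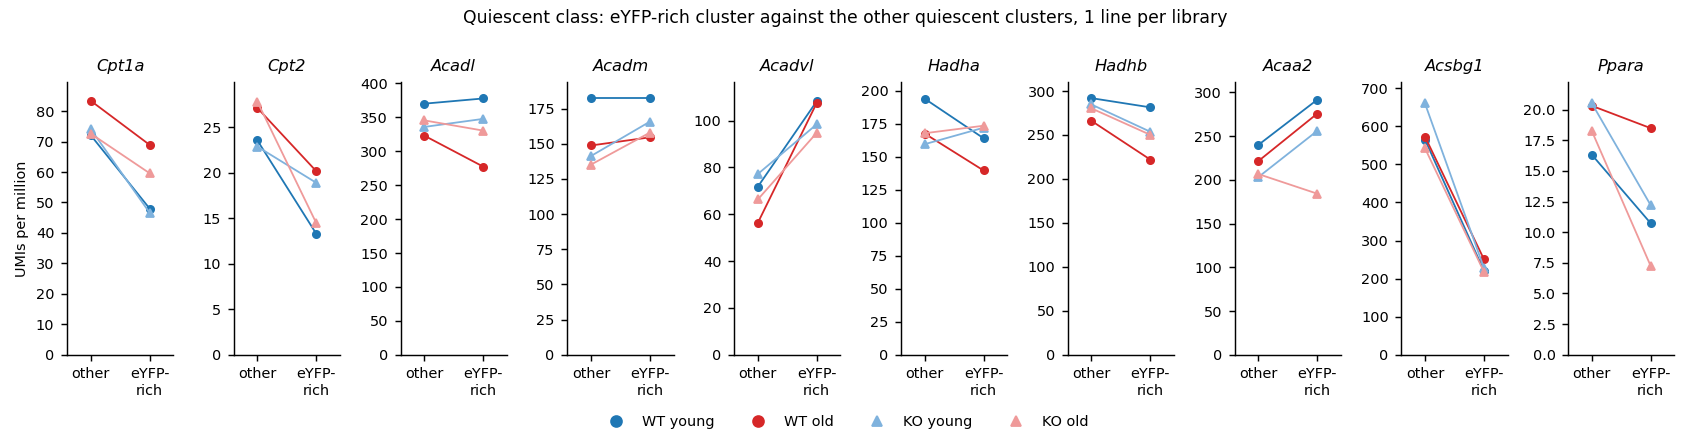
CPM (linear axes from 0) of the members in the eYFP-rich quiescent cluster and in the other quiescent NSC-like clusters, with a line joining both values of each library. Colours and symbols mark the libraries. The lines of Acsbg1, Cpt1a, Cpt2, Hadhb and Ppara fall and those of Acadvl rise towards the eYFP-rich cluster in all 4 libraries, those of Acadl and Hadha go both ways, and Acadm is level in WT young and higher in the eYFP-rich cluster in the other 3.

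Hashtags placed 2593 of the 5779 quiescent NSC-like cells in a tissue and a mouse, which gave 8 mice with both tissues. The share placed ran from 29.8% in KO young to 61.4% in WT old. Retained cells had a median of only 5 to 7 hashtag counts over libraries. Acaa2 had a mean of 248 CPM in vSVZ and 177 in RoB quiescent NSC-like cells, higher in vSVZ in 8 of 8 mice (log2 change 0.46, SE 0.08, adjusted p = 6.38e-05). Acadl was also higher in 8 of 8 mice (361 and 303, log2 change 0.24, adjusted p = 0.0109). Acsbg1 was lower in vSVZ in 8 of 8 mice (470 and 570, -0.28, adjusted p = 0.000725). These 3 of 10 members passed edgeR's quasi-likelihood test with mouse as a block, where 13.6% of 8027 genes did. The eYFP-rich cluster made up 12.1 to 52.9% of vSVZ and 0 to 26.7% of RoB quiescent cells per mouse. Without it the change of Acaa2 was 0.50 and that of Acadl 0.29, both called, while that of Acsbg1 was -0.05 and not called.

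Age and genotype were compared in vSVZ quiescent NSC-like cells, with the mouse as the replicate and 2 mice in each group. WT young mice were taken 6 weeks after tamoxifen and the other groups 9 weeks after it. Time after tamoxifen thus cannot be told apart from age in WT mice or from genotype in young mice. KO old mice were 92 to 105 weeks old and WT old mice 80, so genotype and age cannot be told apart in old mice. A group is also 1 reaction, and all of this holds for RoB cells too. Acadm stood at 228 and 186 CPM in young and 134 and 147 in old WT mice, and at 165 and 163 in young and 157 and 118 in old KO mice. The WT young mice were highest and the WT old mice did not overlap with them (log2 change -0.52, SE 0.13, adjusted p = 0.00626, edgeR's quasi-likelihood test over 10438 genes). Ppara stood at 14.8 and 10.98 in young and 35.8 and 21.4 in old WT mice, and at 21.2 and 17.3 in young and 16.2 and 16.0 in old KO mice. The rise in WT was 2.17-fold (1.12, SE 0.33, adjusted p = 0.0206), from 12 to 46 UMIs per mouse. Acsbg1 stood at 427 and 377 in young and 483 and 544 in old WT mice (0.37, SE 0.10, adjusted p = 0.00867), and at 535 and 478 in young and 466 and 449 in old KO mice. These 3 of 10 were called between WT old and WT young (15.5% of genes), and 1 was left without the second WT young mouse (5.37% of genes). DESeq2 did not call Ppara (adjusted p = 0.11).

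The eYFP-rich cluster made up 47.6 and 52.9% of vSVZ quiescent NSC-like cells in young and 22.8 and 12.1% in old WT mice, against 38.6 and 39.7% in young and 17.0 and 16.6% in old KO mice. Without that cluster the age change of Acsbg1 in WT was -0.06 (adjusted p = 0.801), that of Ppara 0.96 (adjusted p = 0.208) and that of Acadm -0.61 (adjusted p = 0.0192, edgeR's quasi-likelihood test). Acadm alone of these 3 kept its call, which was lost without the first WT young mouse (-0.41, adjusted p = 0.0878, edgeR's quasi-likelihood test). In KO mice 0 of 10 members passed edgeR's test between old and young (4.45% of genes), 1 had an unadjusted p under 0.05, and DESeq2 called 0. The share is that of edgeR's adjusted p, and none is given for the unadjusted p or DESeq2. Acsbg1 was called in KO without the eYFP-rich cluster, with a log2 change of -0.40 (adjusted p = 0.0108).

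**Figure D5:**
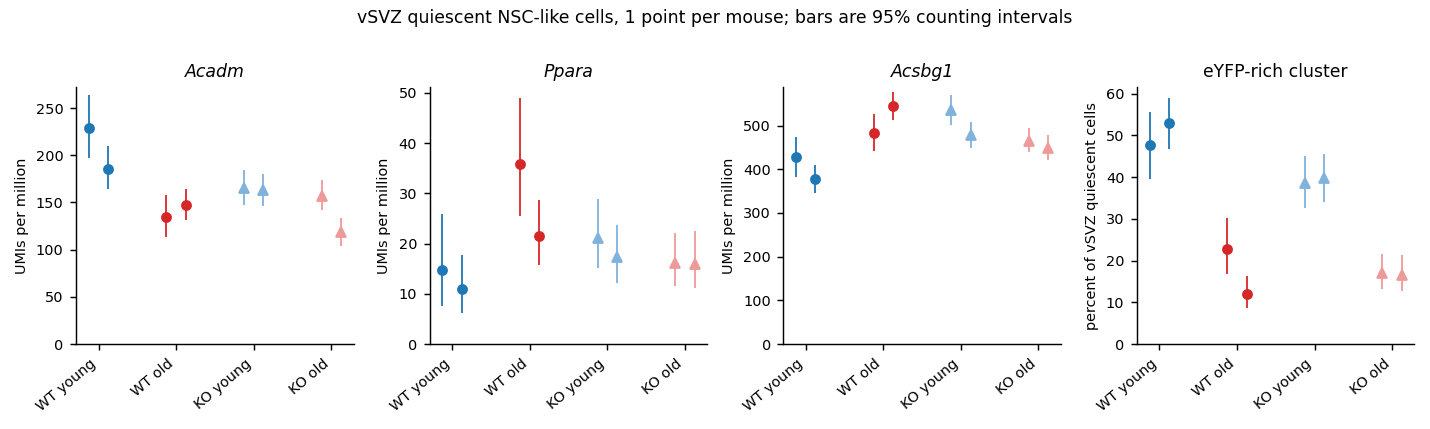
CPM of Acadm, Ppara and Acsbg1 in vSVZ quiescent NSC-like cells of each mouse, and the percent of those cells in the eYFP-rich cluster, with 95% counting intervals (exact Poisson for levels, Wilson for the percent) and linear axes from 0. Acadm is highest in the WT young mice (186 and 228), Ppara highest in the WT old mice (21.4 and 35.8), and the eYFP-rich share is higher in each young mouse than in each old one.

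Between genotypes, Acsbg1 was the only member called, higher in KO than in WT young mice (log2 change 0.36, SE 0.10, adjusted p = 0.0354, edgeR's quasi-likelihood test). This was 1 of 10 members where 2.9% of genes were called, and 0 were called when any of the 4 young mice was left out or when the eYFP-rich cluster was. Between KO and WT old mice edgeR called 0 of 10 (0.192% of genes), 1 had an unadjusted p under 0.05, and DESeq2 called 0. The age change differed between genotypes for 0 of 10 members by edgeR (1.25% of genes), with 3 at an unadjusted p under 0.05 and 1 called by DESeq2. The shares between genotypes are those of edgeR's adjusted p, and none is given for the unadjusted p or DESeq2. The member nearest to a call was Acsbg1, whose age change was 0.49 lower on the log2 scale in KO (interaction -0.49, SE 0.13, adjusted p = 0.065, edgeR's quasi-likelihood test). It was called without the first WT old mouse.

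In RoB quiescent NSC-like cells, with 40 to 127 cells per mouse, edgeR and DESeq2 each called 0 of 10 members in 5 comparisons. By the same rule edgeR called 1.51% of 7169 genes for WT old against WT young, 0.126% for KO old against KO young, 0.432% for KO against WT in young mice, 0.0418% for KO against WT in old mice and 0.0558% for the difference between both age changes. An unadjusted p under 0.05 was found for 1 member in the first and 1 in the last of these, and for 0 in the other 3. The share of all genes with such an unadjusted p is not given. The median SE of the members was 0.18 to 0.28 on the log2 scale in these comparisons, against 0.11 to 0.17 in vSVZ. Larger changes also went uncalled, such as Acadvl between WT old and WT young (log2 change -0.59, SE 0.27, adjusted p = 0.331, edgeR's quasi-likelihood test). The absence of calls at this depth therefore does not show equal levels.

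The genes around the members were mostly lower in neuroblast-like than in quiescent NSC-like cells, a comparison in which 44.3% of all genes were called lower. Of the other mitochondrial β-oxidation genes 13 of 13 were lower, led by Hadh, the short-chain hydroxyacyl-CoA dehydrogenase (4.78 against 149 CPM, log2 change -5.28), Decr1 (-4.29) and Acad11 (-4.10). Of the other carnitine and activation genes 9 of the 11 tested were lower and 0 higher, with Acsl6 (12.8 against 663, -5.99) and Acsl3 (64.3 against 2053, -5.32) foremost. Peroxisomal genes had 7 of 8 lower, among them Abcd2 (-3.52) and Hsd17b4 (-2.64). Regulators had 9 of 10 lower, with Ppargc1a, a coactivator of mitochondrial genes, at 0.802 against 109 (-7.02). PPAR target and ketone body genes had 8 of 10 lower, with Pdk4 at 0.172 against 39.9 (-7.18). Fatty acid synthesis, the opposing pathway, also had 9 of 10 lower and 1 higher, led by Srebf1 (6.37 against 238, -5.52) and Thrsp (-5.09). In these lists the median log2 change ran from -1.80 for carnitine and activation genes to -2.97 for fatty acid synthesis, beside -3.74 for the members and -0.29 for all genes. Single steps held calls in both directions. Fatty acid synthesis had 7 lower and 3 higher from quiescent to activated NSC-like cells, where 39.6% of all genes were lower. PPAR target and ketone body genes had 5 lower and 2 higher from there to TAP-like cells (20.1% of all genes lower). Peroxisomal genes had 2 lower and 2 higher (median 0.18) from TAP-like to neuroblast-like cells (23.8% of all genes lower). The share of all genes called higher is not set beside these counts, so the higher counts are not read as a result about the lists.

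With age in WT vSVZ quiescent NSC-like cells 15.5% of all genes were called, and the counts of these lists are read against that share. Hsd17b10 (138 against 216 CPM, log2 change -0.66) was 1 of 2 mitochondrial β-oxidation genes that were lower, of 12 tested, and none was higher. Abcd2 (88.6 against 54.5, 0.70) was 1 of 2 peroxisomal genes (6 tested) and Crot, a peroxisomal carnitine transferase (386 against 254, 0.63), 1 of 2 carnitine and activation genes (8 tested) that were higher. Fatty acid synthesis had 2 of 10 higher, regulators 1 of 6 higher, and PPAR target and ketone body genes 1 of 9 lower.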

How the data were processed

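Single-cell 3′ RNA and hashtag libraries were analysed from the files the authors deposited. Per the labels and the study's methods, the authors aligned reads with kallisto and bustools against GRCm38 and processed cells with Scanpy 1.6.0. No annotation release is named in the sources used. The deposited values are UMI counts per gene and cell barcode and hashtag counts per barcode, neither normalised. Depth was 27096070 to 78028524 UMIs a library.

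Barcodes with 100 to 6000 genes, 1000 to 20000 UMIs and at most 10% mitochondrial UMIs were kept (18390 of 844265, with 66.3 to 83.0% of UMIs). Predicted doublets (1.84%) were removed. Cells were clustered with scanpy 1.11.5 and leidenalg 0.10.2 (2000 variable genes, 50 components, resolution 1.0) without the members, the other pathway genes, interferon-stimulated genes, mitochondrial genes and transgenes, and clusters were named from marker lists. Hashtags were called by a mixture model in 20.6 to 60.2% of retained cells a library.

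Counts were summed per class and library (at least 20 cells) or per tissue and mouse, and tested with edgeR 4.0.16 (quasi-likelihood, TMM, Benjamini-Hochberg) over all genes, with library or mouse as a block within libraries. DESeq2 1.42.0, other scaling, filters, resolutions, thinning to 1000 UMIs and left-out replicates were alternatives. The scripts were tested on simulated data. A count of 0 allows up to 3 UMIs, and intervals (95%) cover counting error only. The named genes are the members, the 3 genes of a wider list with the largest called change, and the 5 or 10 most similar profiles, of which some are not reported here. The members and lists were chosen with earlier results of these data known.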

Additional observations from a re-analysis of the deposited data

Results flagged for a closer look

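In 6 of 68 member and class pairs with 4 libraries (8.82%), 1 library lay far from the other 3 by Dixon's criterion. Chance gives about 1 in 20, or 3.4 of 68. Acsbg1 in TAP-like cells stood at 2.32 CPM in WT old, from 1 UMI, against 10.7 to 11.7 in the other libraries. Ppara in neuroblast-like cells was 0 in WT old against 0.329 to 0.394, and Ppara in neuron-like cells was 1.52 in KO old, from 2 UMIs, against 0 in each other library. Cpt2 in microglia-like cells stood at 19.1 in KO old, from 5 UMIs, against 11.3 to 11.9. Acaa2 in microglia-like cells stood at 27.9 in KO young, from 14 UMIs, against 18.3 to 19.6. Hadha in ensheathing glia-like cells stood at 334 in WT young, from 390 UMIs, against 292 to 295.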

How the results depend on the processing

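No paired analysis was possible because hashtag numbers in different groups belong to different mice, which concerns comparisons between groups only, while those within libraries or mice had the library or mouse as a block. Of 265 recomputed counts of called members, 242 stayed within 1.5 times the value reported, and of 1178 log2 changes 1071 kept direction and side of the threshold, 105 lost the call and 2 turned. The cause was not tested. From activated NSC-like to TAP-like cells 1 member was called at clustering resolution 0.5, and 4 of 8 tested with each cell thinned to 1000 UMIs. From TAP-like to neuroblast-like cells leaving out a library gave 2 to 6 (lowest without WT young, 3 without KO young) and thinning 2. Endothelial-like cells gave 4 with library size alone and 7 without WT young. Ensheathing glia-like cells gave 5 to 8 (lowest without KO young) and 4 thinned. The eYFP-rich cluster gave 1 thinned, and at resolution 0.5 its Acadvl change was -0.06. The WT age change in vSVZ gave 1 to 3 without a mouse (lowest without WT young 2), and 1 both at a hashtag posterior of 0.99 and without the eYFP-rich cluster, where the Acsbg1 change turned to -0.06. The KO age change gave 1 without that cluster. KO against WT in young mice gave 0 to 1 without a mouse (0 without any young mouse), and 0 at 0.99 and without the cluster. The difference of age changes gave 1 (Acsbg1) with library size alone, with no filter, with DESeq2 and without WT old replicate 1, and 0 without each other mouse. Acaa2 in neuroblast-like cells moved to 8.4 CPM as a mean over cells. With library size alone, 4015 of the genes called from quiescent to activated NSC-like cells were lower and 5573 higher, against 5694 and 3875, with no member turned. In WT vSVZ the genes called with age fell from 1615 to 399 without the eYFP-rich cluster and to 722 with DESeq2. Depth limits Ppara and Cpt2 most, with 12 to 46 and 14 to 63 UMIs per vSVZ mouse.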

Other observations

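In ensheathing glia-like cells 8 of the 10 fatty acid synthesis genes were higher than in quiescent NSC-like cells (25.3% of genes) and 1 lower (28.1% of genes). The median log2 change was 1.18 against -0.07 over all genes (edgeR's quasi-likelihood test). In neuroblast-like cells 9 of 10 were lower (44.3% of genes) and in microglia-like cells 7 of 10 (31.5% of genes). No test of the difference between classes was run.

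Of the fatty acid synthesis list, Scd1 (27.9 CPM in vSVZ and 48.1 in RoB quiescent NSC-like cells, log2 change -0.77) and Me1 (63.1 and 97.4, -0.65) were lower in vSVZ.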
